A study of Homo sapiens with 12 samples.

Results

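The genes whose coding sequence was built into the transduced receptors were followed through 12 RNA-seq libraries of YT cells. They are FCGR3A, CD247, HCST and CD244, together with FCGR3B, the near-identical copy of FCGR3A. The 5 genes were taken by symbol from a table of 17589 genes, and all of their 16 transcripts were taken from a table of 90572 transcripts. All 5 genes and 13 of the 16 transcripts passed the filter on low counts.

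YT is a human NK-like lymphoid line that is described as lacking CD16a, and all 4 groups of 3 libraries carried a lentiviral vector with the constitutive hEF1A promoter and an eGFP reporter, by which transduced cells were sorted. CTRL cells expressed eGFP alone. hnCD16 cells expressed CD16a with substitutions for high affinity and resistance to cleavage and with its natural cytoplasmic tail. FR1 cells expressed the ectodomain and transmembrane part of hnCD16 joined to the cytoplasmic parts of 2B4, DAP10 and CD3ζ, and FR2 cells expressed the same fusion without 2B4. No ligand or target cell was added in any group. The labels number the replicates but do not tie them to separate cultures, so that the p-values measure the spread between these libraries, which may be technical.

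CD16a, the product of FCGR3A, is the Fc receptor by which NK cells recognise antibody-coated targets, and it signals through partner chains that carry tyrosine motifs (ITAMs). One such chain is CD3ζ, the product of CD247, which also serves the T cell receptor. DAP10, the product of HCST, is the partner of the activating receptor NKG2D and carries a motif that recruits PI3 kinase. 2B4, the product of CD244, is a receptor for CD48 whose tyrosine motifs bind the adaptor SAP. FCGR3B encodes CD16b, a lipid-anchored receptor of neutrophils that lacks a signalling tail.

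A read from a construct and a read from the cell's own gene are counted to the same gene wherever their sequences match, and the tables hold counts by gene and transcript without the position of the reads. The codons used in the constructs are not given in the sources used here, so reference sequences are shown. They are GENCODE v44 transcripts on GRCh38, taken from the coding strand and written 5′ to 3′. The first set shows why reads from CD16a are hard to assign. Over the 687 coding bases of FCGR3A that all 3 receptors use, FCGR3B differs at 9 bases (98.7% identity), and the longest stretch without a difference is 195 bases. The stretch from codon 147 to codon 176 holds 4 of these differences, in capitals below. It lies in 1 exon of each gene on the minus strand, at chr1:161544750-161544839 for FCGR3A and chr1:161626194-161626283 for FCGR3B. Counted from the first coding base, with the FCGR3A base first, the differences are G440A, T472C, C498T and T526G. Those that change an amino acid are G147D, Y158H and F176V, counted from the first residue of the precursor.
FCGR3A: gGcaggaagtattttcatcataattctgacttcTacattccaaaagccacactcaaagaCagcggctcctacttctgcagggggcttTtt
FCGR3B: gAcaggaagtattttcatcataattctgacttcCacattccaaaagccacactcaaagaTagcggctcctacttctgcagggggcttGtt

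The last of these codons is the site of the high-affinity substitution in hnCD16, FR1 and FR2, where the receptors carry the valine that FCGR3B also encodes. Whether reads over this codon were counted to FCGR3B was not tested.

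The second set shows the codon by which the forms of CD247 and of HCST differ. The constructs are described as carrying CD3ζ from residue 52 to 164 and DAP10 from residue 70 to 93, which is the numbering of the longer form of each, although the construct sequences themselves were not analysed here. CD247-201 has 164 codons and CD247-202 has 163, and the bases in capitals, in codon 101 of the longer form, are absent from the shorter one. The stretch spans 3 exons on the minus strand between chr1:167434065-167438614 and belongs to the part from codon 52 onward, which encodes 3 ITAMs.
CD247-201: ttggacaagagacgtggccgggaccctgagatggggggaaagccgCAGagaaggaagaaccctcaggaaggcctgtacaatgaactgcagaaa
CD247-202: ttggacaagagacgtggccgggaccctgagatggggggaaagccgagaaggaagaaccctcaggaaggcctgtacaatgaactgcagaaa

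For HCST the whole cytoplasmic part is shown from codon 70, which spans 2 exons on the plus strand between chr19:35903870-35904157. HCST-201 has 93 codons and HCST-202 has 92, and the bases in capitals are again absent from the shorter form. Each form holds 1 YxxM motif, the PI3 kinase site.
HCST-201: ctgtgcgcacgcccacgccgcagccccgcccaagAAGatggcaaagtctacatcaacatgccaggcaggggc
HCST-202: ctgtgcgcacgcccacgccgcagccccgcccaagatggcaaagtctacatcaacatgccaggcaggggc

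The last sequence is the cytoplasmic part of 2B4, the segment that separates FR1 from FR2. It comprises the last 120 codons of CD244-203, which has 365, and its first 100 codons are shown. They span 6 exons on the minus strand between chr1:160831410-160838969. The codons of the tyrosines in the 4 switch motifs are in capitals. The segment is held whole by CD244-201, CD244-202 and CD244-203, so that these bases alone do not tell the 3 forms apart. The residue numbers described for the 2B4 part of FR1 are those of the longer form CD244-202, which has 370 codons.
CD244-203: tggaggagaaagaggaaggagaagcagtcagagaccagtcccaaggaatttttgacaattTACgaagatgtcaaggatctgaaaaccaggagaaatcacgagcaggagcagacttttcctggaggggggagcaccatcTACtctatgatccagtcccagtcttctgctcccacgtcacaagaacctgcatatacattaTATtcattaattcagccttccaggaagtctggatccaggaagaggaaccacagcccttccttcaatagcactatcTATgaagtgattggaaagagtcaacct

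FCGR3A (chr1:161541759-161550968), FCGR3B (chr1:161623196-161631963), CD247 (chr1:167425027-167518640) and CD244 (chr1:160830160-160862887) all lie on the minus strand of chromosome 1. HCST lies on the plus strand at chr19:35902529-35904377. Among the genes measured here, FCGR3A and FCGR3B are neighbours, 72228 bases apart. CD247 overlaps POU2F1 at its end, and HCST lies 24 bases from TYROBP, which encodes the related adaptor DAP12. Whether counting used strand is not stated, so that counts of these neighbours could overlap.

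Libraries held 17714566 to 18729019 counts. The FR1 and FR2 libraries stood apart from the CTRL and hnCD16 libraries across the transcriptome. Between these sets, 38.0% to 39.5% of the 13657 genes tested were DEGs, against 0.527% for hnCD16 against CTRL and 1.93% for FR1 against FR2. DEGs had to pass an adjusted p of 0.05 in edgeR's quasi-likelihood test and to change by 1 or more, up or down, on the log2 scale. The cell markers moved with this split and went against the NK-like label in CTRL and hnCD16. Of 13 NK cell markers, 6 reached 1 CPM in every library of CTRL and of hnCD16, with summed levels of 131.0 to 159.0 TPM, whereas 10 did so in FR1 and 11 in FR2, with 7418 to 8098 TPM. Of 10 T cell markers, 7 reached 1 CPM in every CTRL and hnCD16 library (1539 to 1764 TPM) and 3 in FR1 and in FR2 (78.4 to 99.96 TPM), and TRAC was at 0 throughout. The summed B cell markers lay at 15.4 to 24.9 TPM in CTRL and hnCD16 and at 8.10 to 10.2 TPM in FR1 and FR2. Those of monocytes or macrophages lay at 4.80 to 7.66 and 19.3 to 32.3 TPM, and those of neutrophils at 1.80 to 2.86 and 0.41 to 1.02 TPM. CD79A and CD79B reached 1 CPM in every CTRL and hnCD16 library and PAX5 in every FR1 and FR2 library. Of 7 monocyte or macrophage markers, 2 did so in CTRL and hnCD16 and 4 in FR1 and FR2. MS4A1, BLK and ELANE were at 0 in every library. A comparison across the split therefore compares constructs in libraries that differ in cell markers, and the 2 cannot be told apart. hnCD16 against CTRL and FR1 against FR2 stay within a set and are given first for each gene. In RNA from bulk cells, fewer cells with a transcript and less of it per cell cannot be told apart either.

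CD16a transcripts were present in every library that carried a receptor and in no CTRL library. FCGR3A had 0 counts in each of the 3 CTRL libraries. It had 479.7, 452.7 and 462.2 expected counts in hnCD16, 567.0, 559.8 and 559.3 in FR1, and 1109.8, 1131.8 and 1011.6 in FR2. The groups did not overlap, FR2 was the highest, and the SD within a group was small against the steps between groups. A CTRL library without a count allows up to 0.149 to 0.153 CPM (3 counts, counting error only).

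Scaled to library size with TMM (CPM), FCGR3A reached 25.04 ± 0.922 in hnCD16, 32.4 ± 0.427 in FR1 and 61.3 ± 3.15 in FR2 (mean ± SD, n = 3). Against the 3 counts that an empty library allows, this was at least 165.9-fold higher than CTRL in hnCD16, at least 214.5-fold in FR1 and at least 406-fold in FR2. FCGR3A passed the filter on low counts through the groups with a receptor alone, so its calls against CTRL say nothing beyond these counts. Within the set of FR1 and FR2, FR1 was lower by a log2 fold change of -0.92 ± 0.06 (SE; adjusted p = 4.07e-08), below the fold threshold for a DEG. Across the sets, the log2 fold change over hnCD16 was 0.37 in FR1 and 1.29 in FR2, and the latter was a DEG. All counts of FCGR3A stood in its single listed transcript, NM_000569.

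FCGR3B, whose protein none of the constructs encodes, followed the same groups at a lower level. It had 0 counts in each CTRL library, 48.3, 64.3 and 46.8 in hnCD16, 43.0, 81.3 and 69.7 in FR1, and 126.3, 112.3 and 139.4 in FR2. FR2 lay above all other libraries, while FR1 and hnCD16 overlapped. FR1 against hnCD16 gave a log2 fold change of 0.38 ± 0.22 (adjusted p = 0.121), which passed once FR1 replicate 1 was left out (0.61, adjusted p = 0.00981). FR1 was lower than FR2 by -0.93 ± 0.19 on the log2 scale (adjusted p = 0.00139).

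The share of FCGR3B in the counts of both genes overlapped between receptors. It was 9.14%, 12.4% and 9.19% in hnCD16, 7.05%, 12.7% and 11.1% in FR1, and 10.2%, 9.02% and 12.1% in FR2. The 3 groups overlapped, with means of 10.3%, 10.3% and 10.5%. The differences were 0.0148 percentage points for FR1 minus hnCD16, 0.193 for FR2 minus hnCD16 and 0.178 for FR2 minus FR1 (p = 1.0 each, two-sided exact permutation test, where 3 against 3 libraries cannot go below 0.1). Because RSEM divides reads between such near-identical genes, both values are uncertain one by one. None of the 7 neutrophil markers reached 1 CPM in every library of a group.

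Both genes were therefore also tested as 1 summed row. In CPM the sum was 27.9 ± 0.841 for hnCD16, 36.1 ± 0.892 for FR1 and 68.5 ± 2.35 for FR2, and none of these groups overlapped. FR1 differed from FR2 by -0.92 ± 0.05 on the log2 scale (adjusted p = 1.91e-08). Over hnCD16, the sum changed by 0.37 ± 0.06 in FR1 (adjusted p = 2.03e-05) and by 1.295 ± 0.05 in FR2 (adjusted p = 2.62e-12).

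**Figure D1:**
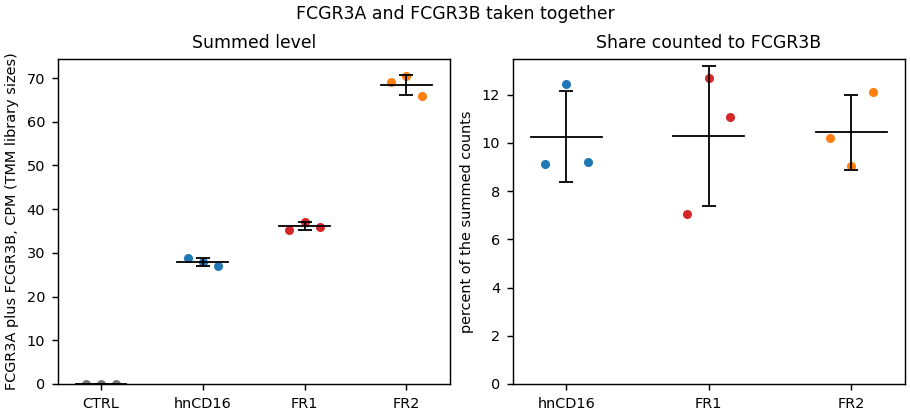
Summed level of FCGR3A and FCGR3B in CPM by group (left) and the percent of the summed counts assigned to FCGR3B in the groups with a receptor (right). Points are libraries, with the mean and SD of 3 as lines. CTRL is at 0, FR2 is highest at 65.8 to 70.4 CPM, and the shares of FCGR3B overlap between 7.05% and 12.7%.

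CD247, the gene of CD3ζ, was already abundant without a construct that carries it. It had 1582, 1628 and 1469 counts in CTRL, 1573, 1495 and 1498 in hnCD16, 1809, 1819 and 1785 in FR1, and 2160, 2094 and 2091 in FR2. CTRL and hnCD16 overlapped, FR1 lay above both and FR2 above FR1. In TPM, where transcript length enters and TMM scaling does not, CTRL (98.8 ± 3.62) lay above hnCD16 (92.9 ± 1.47) without overlap. The difference was -0.09 by limma on log2(TPM + 1) (adjusted p = 0.0628). The TMM factors were 1.053 to 1.107 in CTRL and 0.985 to 1.018 in hnCD16. The main forms of CD247 had effective lengths of 1548 and 1551 bases.

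hnCD16 against CTRL gave a log2 fold change of 0.06 ± 0.05 for CD247 (adjusted p = 0.363). FR1, which carries the same CD3ζ segment as FR2, was lower than FR2 by -0.20 ± 0.05 (adjusted p = 0.00471). Across the sets, CD247 was higher by 0.34 in FR1 and 0.55 in FR2 over hnCD16, and by 0.41 and 0.61 over CTRL. None of these reached the fold threshold.

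The transcripts of CD247 divided differently on either side of the split. From general knowledge of RefSeq, since the tables do not pair its identifiers with GENCODE names, NM_000734 is the form without the extra codon shown above and NM_198053 the form with it. NM_000734 held 59.4%, 59.9% and 63.2% of the counts of CD247 in CTRL, 49.4%, 59.9% and 52.7% in hnCD16, 82.0%, 81.4% and 82.0% in FR1, and 87.3%, 89.0% and 86.5% in FR2. CTRL and hnCD16 overlapped, FR1 was above both, and FR2 was above FR1 in all libraries. For NM_198053 the order was the reverse, with 33.1% to 38.3% in CTRL and 33.8% to 44.6% in hnCD16, but 11.5% to 14.6% with FR1 and 7.33% to 9.28% with FR2.

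In level, NM_198053 had 606.2, 539.4 and 507.4 counts in CTRL and 702.3, 505.9 and 643.6 in hnCD16, but 208.0, 239.9 and 259.7 in FR1 and 200.4, 153.6 and 180.7 in FR2. So the form with the extra codon, to which the residue numbers of the constructs point, was lower in FR1 and FR2 than in CTRL and hnCD16, and NM_000734 was higher. Which form the reads of the constructs were counted to was not tested. NM_198053 was lower by -1.30 ± 0.16 (log2) in FR1 against hnCD16 (adjusted p = 0.000226) and by -1.71 ± 0.17 in FR2 against hnCD16 (adjusted p = 3.33e-05). NM_000734 was higher by 0.94 ± 0.06 in FR1 (adjusted p = 1.86e-06) and by 1.26 ± 0.06 in FR2 against hnCD16 (adjusted p = 2.22e-07). FR1 against FR2 gave -0.32 ± 0.06 for NM_000734 (adjusted p = 0.0308), a call lost when any 1 of the 6 libraries was left out (adjusted p from 0.0669 to 0.136). For NM_198053 it gave 0.41 ± 0.16 (adjusted p = 0.420).

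The test of the share itself sets a transcript against the others of its gene (edgeR's diffSpliceDGE). It called NM_198053 in FR2 against hnCD16 (log2 change of -1.58, adjusted p = 0.0205) and in FR2 against CTRL (-1.43, adjusted p = 0.0485). The first call was lost without any 1 of the libraries, and the calls among the members in FR2 against CTRL then fell from 2 to 1 or 0. With limma on the log2 odds of the share, an alternative chosen after the data were seen, the shares of NM_000734 and NM_198053 differed in all 4 comparisons across the sets (adjusted p from 0.000337 to 0.0121). Neither method called them within a set. The other forms were minor, XM_011510145 at 2.26% to 6.98% in every library and NM_001378515 and NM_001378516 at under 1% (at most 14.6 counts), the last 2 too low to be tested.

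HCST, the gene of DAP10, had 193, 198 and 181 counts in CTRL, 177, 179 and 203 in hnCD16, 292, 286 and 285 in FR1, and 333, 335 and 306 in FR2. CTRL and hnCD16 overlapped, and all FR1 and FR2 libraries lay above them, FR2 above FR1.

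For hnCD16 against CTRL, HCST gave a log2 fold change of 0.06 ± 0.08 (adjusted p = 0.582). FR1 against FR2 gave -0.15 ± 0.07 (adjusted p = 0.122), which passed when only library size was used for scaling (-0.21, adjusted p = 0.0273). Across the sets, it was higher by 0.72 and 0.87 in FR1 and FR2 over hnCD16 and by 0.79 and 0.94 over CTRL, all below the fold threshold with adjusted p from 2.72e-09 to 1.20e-07.

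Here too the forms changed places across the sets. By the same general knowledge, NM_014266 is the longer form of HCST and NM_001007469 the shorter one. NM_014266 held 34.1, 56.1 and 63.3 counts in CTRL, 22.9, 27.9 and 53.2 in hnCD16, 177.2, 186.6 and 202.6 in FR1, and 246.6, 236.2 and 243.8 in FR2. The first groups overlapped, while FR1 and FR2 lay well above them and did not overlap each other. NM_001007469 held 111.8, 100.2 and 69.2 counts in CTRL, 115.8, 126.8 and 94.2 in hnCD16, 37.5, 55.7 and 25.4 in FR1, and 27.6, 40.4 and 13.3 in FR2. For this form all CTRL and hnCD16 libraries lay above all FR1 and FR2 libraries.

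As a share of HCST counts, NM_014266 held 12.9% to 35.0% over the CTRL and hnCD16 libraries, against 60.7% to 71.1% with FR1 and 70.5% to 79.7% with FR2. The level of NM_014266 was higher in FR1 by 2.54 ± 0.35 (log2, adjusted p = 0.000461) and in FR2 by 2.89 ± 0.36 (adjusted p = 0.000196) over hnCD16. NM_001007469 was lower by -1.42 ± 0.50 in FR1 (adjusted p = 0.0767) and by -1.97 ± 0.51 in FR2 over hnCD16 (adjusted p = 0.0188), the second of which was lost without any of 4 of the 6 libraries, with the highest adjusted p at 0.0630. edgeR called no share of an HCST transcript. With all groups fitted, limma on the log2 odds called both forms in all 4 comparisons across the sets (adjusted p from 0.00214 to 0.0399). It called neither within a set. With only the compared groups, neither was called in FR1 against CTRL (adjusted p = 0.0575 for NM_014266 and 0.0583 for NM_001007469). Both were still called in the other comparisons across the sets. The effective lengths of the 2 forms were 515 and 406 bases. XM_017026193 held 13.6% to 27.4% in every library, and its level passed in none of the 6 comparisons.

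CD244, the gene of 2B4, was the member with the largest fold over hnCD16 in FR1 and in FR2. It had 115, 124 and 137 counts in CTRL, 185, 185 and 178 in hnCD16, 2207, 2199 and 2310 in FR1, and 2133, 2013 and 1948 in FR2. Every FR1 library lay above every FR2 library by a small margin, although FR2 carries no 2B4 segment, and both stood far above hnCD16 and CTRL.

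Within a set, CD244 was higher in hnCD16 than in CTRL by 0.64 ± 0.08 on the log2 scale (adjusted p = 2.96e-05), and in FR1 than in FR2 by 0.17 ± 0.05 (adjusted p = 0.0119). The latter was lost without FR1 replicate 1 (adjusted p = 0.0643), FR1 replicate 3 (0.0519) or FR2 replicate 3 (0.0604), and when only library size was used for scaling (0.10, adjusted p = 0.112). Across the sets, the log2 fold change over hnCD16 was 3.71 ± 0.06 in FR1 and 3.55 ± 0.06 in FR2. Over CTRL it was 4.35 ± 0.06 and 4.19 ± 0.06.

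The share of the main CD244 transcript was lowest in FR1. NM_016382, taken from the same knowledge to be CD244-203, held 100%, 100% and 76.6% of the counts of CD244 in CTRL, 79.4%, 84.5% and 86.5% in hnCD16, and 76.1%, 80.1% and 73.7% in FR2. In FR1 it held 37.3%, 48.2% and 40.9%. The FR1 libraries lay below every other library, and the remaining groups overlapped.

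In level, NM_016382 had 822.8, 1059 and 944.5 counts in FR1 and 1623, 1612 and 1436 in FR2, against 105 to 124 in CTRL and 146.8 to 156.3 in hnCD16. It was therefore lower in FR1 than in FR2, opposite to the gene as a whole. The log2 fold change of FR1 against FR2 was -0.72 ± 0.10 (adjusted p = 0.00844). The other 5 transcripts together had 1384, 1139.8 and 1365.5 counts in FR1 and 510.1, 401.2 and 512.4 in FR2, without overlap.

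Of these, NM_001166664 had 601.9, 254.3 and 632.8 counts in FR1 and 208.2, 132.6 and 215.4 in FR2. XM_011509623 had 413.4, 623.9 and 420.6 in FR1 and 117.4, 126.4 and 108.1 in FR2. XM_011509622 had 330.2, 173.7 and 213.1 in FR1 and 76.4, 81.8 and 79.9 in FR2. For each of these 3 forms every FR1 library was above every FR2 library, but replicates of FR1 spread widely. Their log2 fold changes of 1.43 ± 0.99, 2.06 ± 1.47 and 1.597 ± 1.32 did not pass (adjusted p = 0.830, 0.836 and 0.949). With only the FR1 and FR2 libraries in the fit, XM_011509623 passed (2.06, adjusted p = 0.0181). NM_001166663 did not follow, with 37.9, 86.7 and 96.6 counts in FR1 and 107.8, 60.3 and 108.5 in FR2.

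On the per-length scale of TPM, NM_016382 fell by 23.7 ± 3.45 TPM (SE) from FR2 to FR1, and the other 5 transcripts together were higher by 44.9 ± 4.49 TPM. The share of NM_016382 was 34.5 percentage points lower in FR1 (42.1% against 76.6%, p = 0.1, the smallest value of the two-sided exact permutation test). Across all transcripts, edgeR called no CD244 share for FR1 against FR2, and limma on the log2 odds gave adjusted p = 0.908 for NM_016382 with all groups and 0.0630 with only FR1 and FR2. XM_011509621 had at most 2.41 counts and was not tested.

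**Figure D2:**
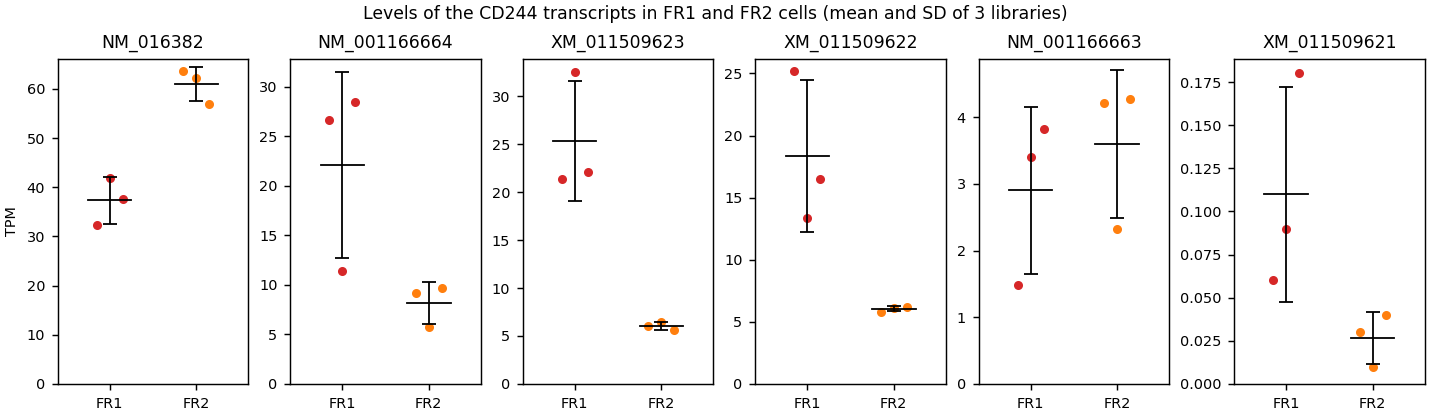
Level in TPM of the 6 listed CD244 transcripts in FR1 and FR2. Points are libraries, with the mean and SD of 3 as lines, and each panel has its own axis from 0. NM_016382 is lower in FR1 (32.3 to 42.0 TPM against 57.0 to 63.7), NM_001166664, XM_011509623 and XM_011509622 are higher, and NM_001166663 overlaps.

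In CTRL and hnCD16, forms other than NM_016382 were sparse. NM_001166664 had 0 counts in each CTRL library and 0, 9.11 and 24.02 in hnCD16, so that FR1 was at least 186-fold and FR2 at least 69.4-fold above CTRL. NM_001166663 had 0 counts in all 6 CTRL and hnCD16 libraries, and FR1 and FR2 were at least 26.1-fold and 32.5-fold above hnCD16. edgeR called the share of NM_001166664 in FR1 against CTRL (adjusted p = 0.00473) and in FR2 against CTRL (adjusted p = 0.0280). As these forms passed the filter through the groups where they were high, their calls say little beyond the counts.

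**Figure D3:**
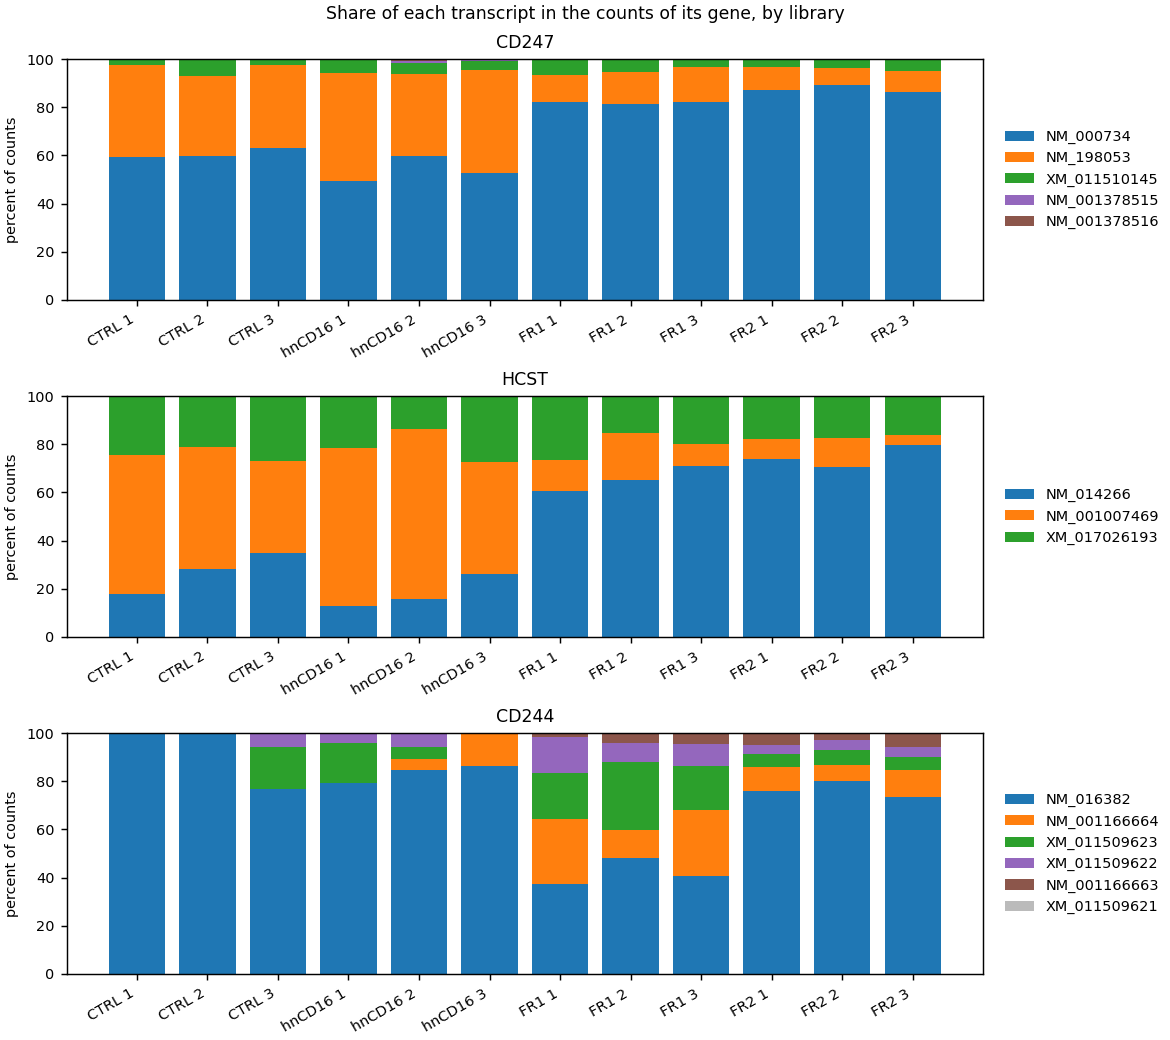
Percent of the counts of CD247, HCST and CD244 assigned to each of their transcripts, 1 bar per library, adding up to 100%. NM_000734 takes over 80% of CD247 in FR1 and FR2, NM_014266 over 60% of HCST there, and NM_016382 under 50% of CD244 in FR1 alone.

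Taken over the 5 genes, 2 were DEGs in hnCD16 against CTRL (0.527% of all genes tested), both of them CD16 genes, which passed the filter through the groups with a receptor alone and are also 2 of the DEGs in FR1 and in FR2 against CTRL. None of the 5 was a DEG in FR1 against FR2 by edgeR (1.93% of all genes), DESeq2 or limma on TPM, although 4 had an unadjusted p under 0.05 and 4 an adjusted p of at most 0.05 (36.2% of all genes). Across the sets the count was 1 of 5 in FR1 against hnCD16 (38.3%), and 3 of 5 in FR2 against hnCD16 (39.5%), FR1 against CTRL (38.0%) and FR2 against CTRL (38.2%). With shares of this size among all genes, the counts across the sets are no result about the members. By adjusted p alone, 3 of 5 passed in hnCD16 against CTRL (43.0%), 4 in FR1 against hnCD16 (79.1%), and all 5 in FR2 against hnCD16 (80.1%), FR1 against CTRL (79.9%) and FR2 against CTRL (80.2%). The median log2 fold change over all genes lay between -0.0444 and -0.00349 in the 6 comparisons. That of the 5 members was 0.64 in hnCD16 against CTRL, the value of CD244, and -0.20 in FR1 against FR2. It was 0.38 and 1.29 in FR1 and FR2 against hnCD16, the values of FCGR3B and FCGR3A. Without regard to sign, the median over all genes in these comparisons was 0.219, 0.201, 0.703 and 0.734.

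**Figure D4:**
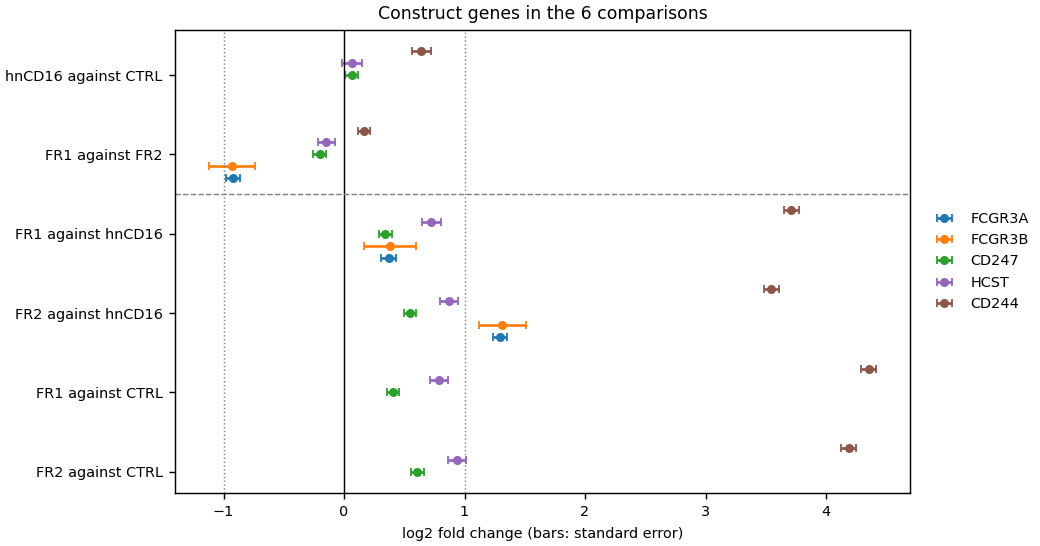
Log2 fold change of each member with its standard error in the 6 comparisons, FCGR3A and FCGR3B being left out against CTRL, where they had no counts. The dotted lines mark the fold threshold of 1 and the dashed line parts the comparisons within a set from those across the sets. CD244 is at 3.55 or more in each comparison across the sets and at 0.64 and 0.17 within them.

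For transcripts, 2 of the 13 tested were called in hnCD16 against CTRL (0.162% of 56640 transcripts). Both are CD16 transcripts, which passed the filter through the groups with a receptor alone. By edgeR, 0 were called in FR1 against FR2 (0.254%), with 4 at an unadjusted p under 0.05 and 3 at an adjusted p of at most 0.05 (1.39%). Across the sets the counts were 6 in FR1 against hnCD16 (14.8%), 8 in FR2 against hnCD16 (15.3%), 9 in FR1 against CTRL (14.7%) and 10 in FR2 against CTRL (14.8%). The calls against CTRL include the CD16 transcripts, NM_001166664 and NM_001166663, all without a count in CTRL. NM_001166663, also without a count in hnCD16, is among the calls against hnCD16 as well. These counts are therefore no result about the members. The 3 untested forms are NM_001378515, NM_001378516 and XM_011509621. For shares, edgeR called 0 of 11 in hnCD16 against CTRL (0.0528% of 53005 shares), in FR1 against FR2 (0.0453%) and in FR1 against hnCD16 (1.10%), with 1, 0 and 3 at an unadjusted p under 0.05. It called 1 in FR2 against hnCD16 (1.21%), 1 in FR1 against CTRL (1.21%) and 2 in FR2 against CTRL (1.24%). limma on the log2 odds called none within either set (0.274% and 0.308% of all shares), where 2 of 11 in each had an unadjusted p under 0.05, and across the sets it called 5 in FR1 (5.64%) and 5 in FR2 (5.84%) against hnCD16, and 7 in FR1 (5.70%) and 5 in FR2 (5.90%) against CTRL. With only the compared groups in the limma fit, 0 of 6 were called in hnCD16 against CTRL (0.927%) and 0 of 11 in FR1 against FR2 (0.994%), against 6 in FR1 (6.88%) and 5 in FR2 (7.13%) over hnCD16 and 4 in FR1 (7.05%) and 6 in FR2 (7.04%) over CTRL.

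Levels of different genes can be compared only per length, in TPM. In hnCD16 the order was CD247 (92.9 ± 1.47 TPM), HCST (38.1 ± 2.44), FCGR3A with FCGR3B (23.997 ± 0.184) and CD244 (7.53 ± 0.274). In FR1, CD247 (112.3 ± 0.851) and CD244 (106.2 ± 3.09) led, followed by HCST (53.2 ± 1.13) and the summed CD16 genes (29.6 ± 0.894). In FR2, CD247 (130.5 ± 3.07) stood above CD244 (84.9 ± 3.56), while HCST (59.1 ± 2.70) and the summed CD16 genes (56.6 ± 1.81) overlapped. In no library did the summed CD16 genes exceed the level of CD247. They were also below HCST in every hnCD16 and FR1 library. The receptors share 687 coding bases of FCGR3A, whereas its TPM is scaled by the effective length of the reference transcript, 2051 bases. The place of the CD16 genes in this order is therefore not a ranking of receptor messages.

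A fused receptor contributes 1 copy of each of its segments per message, but TPM counts reads of the constructs and of the cell's own genes together. The steps from FR1 to FR2 are given side by side in TPM as a description. The summed CD16 genes were higher in FR2 by 27.0 ± 1.17 TPM (SE), CD247 by 18.2 ± 1.84 and HCST by 5.91 ± 1.69, while CD244 was lower by 21.3 ± 2.72. By transcript, NM_000734 was higher in FR2 by 22.4 ± 1.13 TPM and NM_014266 by 9.59 ± 1.78, while NM_198053 and NM_001007469 were lower by 3.71 ± 1.34 and 3.04 ± 2.76. The TPM of a segment is scaled by the length of the whole reference transcript, so these steps are not copy numbers.

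**Figure D5:**
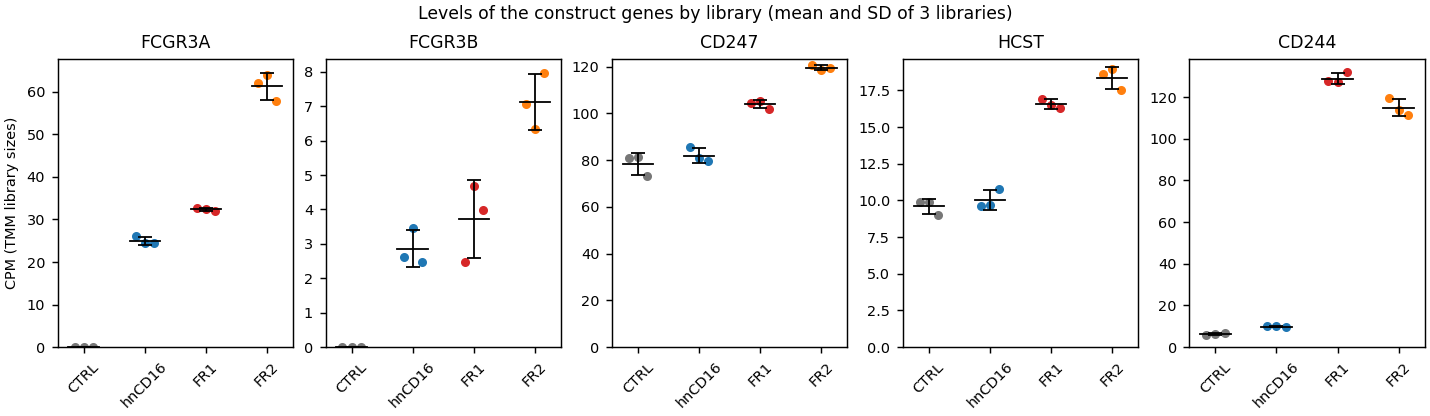
Levels of the 5 genes in CPM with TMM library sizes, by group, each panel on its own axis from 0. Points are libraries, with the mean and SD of 3 as lines. FCGR3A and FCGR3B are at 0 in CTRL, CD247 and HCST rise from a base shared by CTRL and hnCD16, and CD244 stands at 111 to 132 CPM in FR1 and FR2 and at 5.88 to 10.1 in CTRL and hnCD16.

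Among the partners of these proteins, FCER1G, the γ chain that pairs with CD16a, was low throughout, at 0.70 to 3.59 TPM. TYROBP, next to HCST on the genome, was at 0.36 to 1.20 TPM in CTRL and hnCD16 and listed at 0 in FR1 and FR2. KLRK1, which encodes NKG2D, the receptor that DAP10 serves, stood at 25.5 to 27.6 TPM in FR1 and FR2 and at no more than 0.19 TPM in CTRL and hnCD16. The 2 sides did not overlap, and FR1 against FR2 gave 0.01 ± 0.08 (log2, adjusted p = 0.931). Of the CD3 chains that pair with CD3ζ, CD3D stood at 1173 to 1444 TPM in CTRL and hnCD16 and at 0.45 TPM or less in FR1 and FR2. CD3E lay at 136.4 to 205.9 TPM and CD3G at 128.9 to 155.8 TPM in CTRL and hnCD16, against 44.02 to 52.5 and 0.53 to 1.66 TPM in FR1 and FR2. NCR1, the gene of NKp46, was at 46.8 to 58.4 TPM in FR1 and FR2 and at most 0.56 TPM elsewhere. NCR3, on the same list, went the other way. It reached 1 CPM in every CTRL and hnCD16 library, but not in every library of FR1 or of FR2. All 7 tested genes of the list of partners were DEGs in each comparison across the sets, 3 higher and 4 lower in FR1 and FR2, against 0 in hnCD16 against CTRL and 1 in FR1 against FR2. Over all genes tested, DEGs made up 38.0% to 39.5% across the sets, 0.527% in hnCD16 against CTRL and 1.93% in FR1 against FR2.

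Around 2B4, its ligand CD48 differed between all groups. In CTRL, CD48 stood at 1.34 to 2.15 TPM and in hnCD16 at 3.28 to 4.58, against 148.6 to 160.7 TPM with FR1 and 199.1 to 212.6 with FR2. No groups overlapped. It was higher in hnCD16 than CTRL by 1.26 ± 0.21 on the log2 scale (adjusted p = 0.000181), and lower in FR1 than FR2 by -0.39 ± 0.06 (adjusted p = 0.000122). SH2D1A, which encodes SAP, stood at 647.9 to 727.7 TPM in CTRL and hnCD16, at 246.0 to 264.5 in FR1 and at 169.4 to 181.1 in FR2. SLAMF6 and CD84, relatives of CD244, were at 11.1 to 13.04 and 4.43 to 5.37 TPM in CTRL and hnCD16 and below 1 TPM in FR1 and FR2. Of 6 tested genes of this list, 1 was a DEG in hnCD16 against CTRL, 0 in FR1 against FR2, 5 in FR1 and 6 in FR2 against either hnCD16 or CTRL, beside the same 0.527%, 1.93% and 38.0% to 39.5% of all genes.

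Among 30 tested genes of proximal CD16 signalling, 0 were DEGs within a set by edgeR, and 11 to 13 were in the comparisons across the sets, with 6 to 8 higher and 4 or 5 lower. These counts lie near the 38.0% to 39.5% of all genes and are no result about the list. The 4 with the highest mean TPM over the 12 libraries include PTPRC, the phosphatase CD45, at 48.8 to 90.02 TPM in CTRL and hnCD16 and 371.4 to 477.1 in FR1 and FR2, and the adaptor GRB2, at 50.9 to 80.2 and 111.7 to 126.0 TPM. The others were the kinase CSK (46.8 to 90.5 TPM) and the phosphatase PTPN11 (71.7 to 99.3 TPM), and in CTRL and hnCD16 the ranges of all 4 overlapped. Of the proteases that shed CD16, ADAM17 lay at 17.1 to 26.3 TPM and ADAM10 at 47.2 to 64.4 TPM over all libraries. Of 5 tested genes of this list, 2 were DEGs in each comparison across the sets, both higher in FR1 and FR2 and again near the 38.0% to 39.5% of all genes, and 0 within a set. The other Fc receptor genes were nearly silent, with FCGR1A, FCGR2A and FCGR2B at no more than 1.12 TPM, and FCGRT, the neonatal Fc receptor, at 5.81 to 14.6 TPM in CTRL and hnCD16 and 0.59 TPM or less in FR1 and FR2. Of the 2 that were tested, FCGRT and FCER1G, FCGRT was a DEG in each comparison across the sets and FCER1G in FR2 against hnCD16 (-1.07 ± 0.41, adjusted p = 0.0253).

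The genes beside the members, sought only among the genes measured here, were mostly at low levels. LY9 and ITLN1, on either side of CD244, were at 0.34 to 1.48 TPM and at no more than 0.17 TPM, and LY9 was higher in FR2 than in hnCD16 by 1.24 ± 0.32 (adjusted p = 0.00197). HSPA6, beside FCGR3A, was at 0 in CTRL and hnCD16 and at 0.42 to 1.89 TPM in FR1 and FR2, and FCGR2B, beside FCGR3B, did not exceed 0.25 TPM. CREG1, beside CD247, was lower in FR1 and FR2 than in hnCD16 (-1.13 ± 0.06 and -0.69 ± 0.06), as was the overlapping POU2F1 (-0.93 ± 0.08 and -0.98 ± 0.08). GPA33, on the other side of CD247, was at 1.91 TPM or less. NFKBID, beside HCST on chromosome 19, was higher in FR1 and FR2 than in hnCD16 by 0.65 ± 0.12 and 0.66 ± 0.12.

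By likeness of log2(CPM + 1) over the 12 libraries, among 12335 other genes, the nearest to FCGR3A were TMEM123, ABHD5 and ZNF564 (Pearson r of 0.974, 0.962 and 0.957), and the nearest to FCGR3B were TTC33, HEATR5A and IRAG2 (0.973, 0.967 and 0.965). None of these was absent in CTRL, where TMEM123 stood at 203.4 to 229.4 TPM. Nearest to CD247 were NAAA, SIL1 and CNIH4 (0.991, 0.990 and 0.989), and to CD244 RRM2B, TGDS and CLIP4 (r over 0.999 for each). Among the nearest to HCST were EFEMP2 and SLC14A1 (0.996 for each). These values describe 12 libraries that fall into 2 sets, and no test was made of them.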

How the data were processed

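RNA-seq libraries of 4 groups with 3 replicates each were analysed, and groups and replicate numbers were taken from the labels. The authors filtered reads with SOAPnuke, aligned them with HISAT2 (2.1.0) and Bowtie2 (2.3.4.3) to GRCh38.p13 and quantified genes and transcripts with RSEM (1.3.1). The authors tested with DESeq2 (1.4.5), and none of their fold changes or p-values was used. The deposited values are RSEM expected counts, with TPM and FPKM beside them. The deposited expected counts were rounded to whole numbers for tests, and the deposited TPM served comparisons between genes. The deposited FPKM served only to work out the effective lengths of transcripts from the counts. For genes and likewise for transcripts, 28 further columns, which hold the authors' normalized counts of these libraries and their averages by group, were not used. Both rRNA depletion and oligo(dT) selection are named in the methods, and whether counting used strand is not given in the sources used here.

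Genes and transcripts were filtered with filterByExpr, scaled with TMM and tested in 1 fit of all 12 libraries with edgeR's quasi-likelihood test (edgeR 4.0.16, R 4.3.3). P-values were adjusted by Benjamini-Hochberg over all 13657 genes or 56640 transcripts. A call needed an adjusted p of 0.05 or less together with a log2 change of 1 or more in either direction. Shares of transcripts were tested with diffSpliceDGE and, as an alternative chosen after the data were seen, with limma (3.58.1) on log2 odds with 0.5 counts added to both sides. The share of FCGR3B was tested with exact permutation tests over libraries. Fold bounds against groups without counts used 3 counts per library, and these floors cover counting error only. The SE of an edgeR log2 fold change was its size divided by the square root of the F statistic. The scripts were tested on simulated data, in which the dispersion of transcripts was set below the 1.26 of the transcript fit. The simulation therefore does not show how the transcript and share tests perform at the real spread.

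The named genes were every member with all its transcripts, up to 4 genes of each pathway list by mean TPM, FCER1G, TYROBP, KLRK1 and CD48, the nearest genes on the genome, and the 3 genes most like each member, 1 of which is not reported here. NCR1 and NCR3 were named after their values were seen. Members, lists and rules were chosen with earlier results of these data known. Alternatives were RLE or library size scaling, DESeq2 (1.42.0), limma on log2(TPM + 1) and log2(TPM + 0.1), other filters, fewer groups, no fold threshold, a replicate block and leaving out each library.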

Additional observations from a re-analysis of the deposited data

How the results depend on the processing

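Of 1262 fold changes recomputed for single members, 1194 kept their side of the threshold, 12 of them with a change of sign and no call on either side, 59 lost the call and 9 gained it, and none that was called reversed. With at least 10 counts required in every library, which removes the CD16 genes, the genes called fell to 0 in hnCD16 against CTRL and to 1 in FR2 against hnCD16, FR1 against CTRL and FR2 against CTRL. Without the fold threshold, 4 genes passed in FR1 against FR2 and in FR1 against hnCD16 and 5 in each of the other comparisons across the sets, and 3 transcripts passed in FR1 against FR2. With only the compared groups in the fit, 0 transcripts were called in hnCD16 against CTRL and 1 in FR1 against FR2. For shares, limma on the log2 odds called 5 in FR1 and 5 in FR2 against hnCD16 and 7 and 5 against CTRL, and with only the compared groups 6, 5, 4 and 6. With no filter on low counts the shares called were 0 in FR2 against hnCD16 and 1 in FR2 against CTRL. The cause was not tested.

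Leaving out 1 library gave 0 to 1 genes and 0 to 1 transcripts called in FR1 against FR2. The gene was called without FR1 replicate 2 or FR2 replicate 2, and the transcript without FR2 replicate 3. In FR1 against hnCD16, 5 transcripts were called whichever library was left out, in place of 6. The transcripts called ranged from 6 to 8 in FR2 against hnCD16, 6 to 9 in FR1 against CTRL and 8 to 10 in FR2 against CTRL. Shares called then ranged from 0 to 0 in FR2 against hnCD16, from 1 to 2 in FR1 against CTRL and from 0 to 1 in FR2 against CTRL.

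Whether the replicate numbers pair the libraries cannot be told from 3 libraries a group. In no comparison did all same-numbered libraries correlate above 0.1 (from -0.102 to 0.404 over the 6 comparisons). For hnCD16 against CTRL they correlated at 0.0196 to 0.404, and libraries of unlike number at -0.416 to 0.113. For FR1 against FR2 the ranges were -0.102 to 0.00749 and -0.064 to 0.0689. When replicate numbers entered the fit as a replicate block, the shares called in FR2 against CTRL were 0 in place of 2, and the counts of genes called were 2, 0, 1, 3, 3 and 3, as without it.

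The common dispersion was 1.26 for transcripts and 0.00312 for genes. Whether depth limits the transcript calls was not tested, and 3 libraries a group cannot give an exact p under 0.1.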
